A study of Homo sapiens with 6 samples.

Results

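The 10 genes described here encode the MCM2-7 helicase (MCM2, MCM3, MCM4, MCM5, MCM6 and MCM7), the proteins that load it on DNA or block its loading (CDC6, CDT1 and GMNN), and the helicase cofactor CDC45. They were taken by symbol from a table of 20289 genes, and all 10 were among the 11566 genes tested. Ribosome footprints, the mRNA fragments left under ribosomes after nuclease digestion, had been sequenced from RKO cells, an established human colorectal cancer line. The libraries were 3 from RKO carrying the control hairpin (shControl) and 3 from RKO carrying a short hairpin RNA against TRMT6 (shTRMT6), and the comparison asks how knockdown changes footprint levels. TRMT6 is a subunit of the enzyme that methylates adenosine 58 of tRNAs to m1A. The labels call the shControl cells WT and name a single hairpin target. They do not say how many hairpins or clones were used or whether replicate libraries are separate cultures. The p-values therefore cover just the spread among these 6 libraries, which may be technical.

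Before S phase, the origin recognition complex, CDC6 and CDT1 load MCM2-7 rings on DNA as inactive helicases, a step called licensing. Geminin, the product of GMNN, binds CDT1 and prevents a further round of loading after replication has begun. Cyclin-dependent kinase and the CDC7 kinase then recruit CDC45 and the GINS complex, which turn the ring into the active helicase of the replication fork. The ring holds a copy of each of its subunits, and most of these genes are known targets of E2F transcription factors.

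Deposited values were FPKM, footprints scaled to gene length and to the size of the library, which can be compared between genes because they are per length. From the steps between low values the libraries were estimated to hold 2581000 to 4082000 reads on coding sequence. TRMT6 had 57.6, 58.4 and 95.3 FPKM in the shControl libraries and 20.7, 21.9 and 24.1 FPKM in the shTRMT6 libraries (log2 fold change -1.58, limma adjusted p = 0.00301). Of 6 colorectal epithelial markers, 4 passed the filter on low values (KRT8, KRT18, EPCAM and CDX2), KRT19 was above 0 in 1 library, and CDH1 was listed at 0 in all 6. Of 5 markers of other cell types, 0 passed the filter, and PTPRC and CD3E were listed at 0 throughout.

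No member passed the test between the groups with all 6 libraries. When shControl replicate 3 was left out, 3 (MCM4, MCM5 and MCM7) were higher in shTRMT6, where 28.3% of tested genes were higher. That library was the highest control for every member, so leaving it out had to raise their fold changes. With each library scaled to its median, 2 (MCM6 and CDC45) were lower, where 19.7% of tested genes were lower. With all libraries, of the 10 members 0 were higher and 0 lower in shTRMT6 (limma, Benjamini-Hochberg adjusted p under 0.05), and 0 had an unadjusted p under 0.05. Over all tested genes 26.5% were higher and 9.04% lower. The median log2 fold change of the members was -0.24, against 0.39 over all tested genes, with 4 members above 0 and 6 below. The library of shControl replicate 3 stood apart and had the highest value of the 6 libraries for all 10 members, which held for 15.9% of tested genes. In bulk lysate, a change in the number of cells that make these proteins and a change in footprints per cell cannot be told apart.

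**Figure D1:**
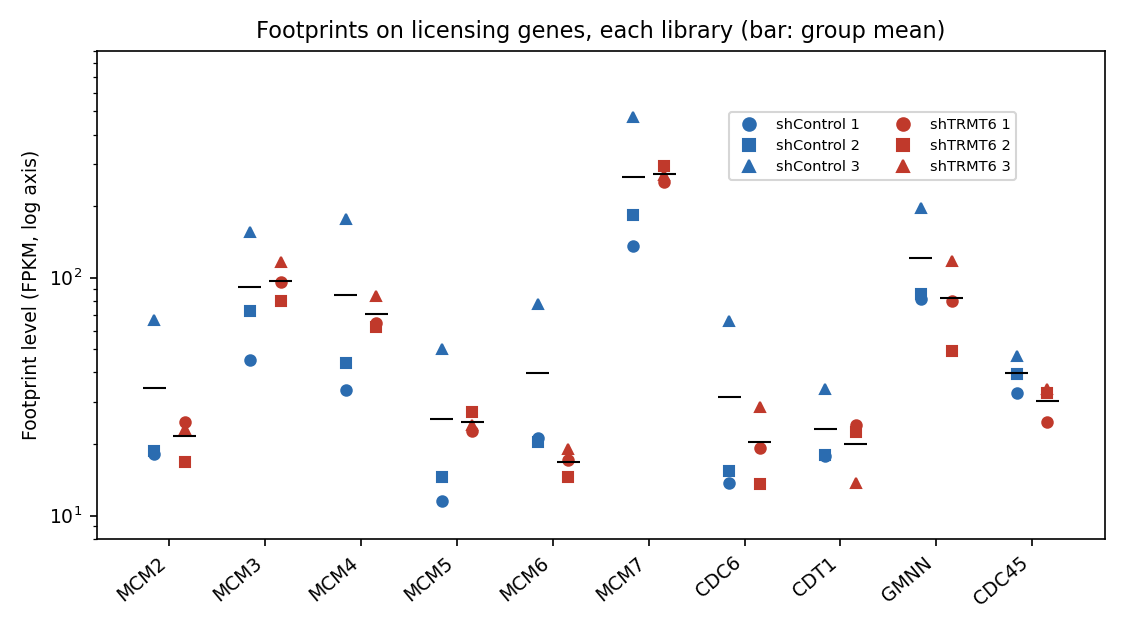
Footprint level in FPKM on a log axis for the 10 genes, with shControl in blue, shTRMT6 in red, a symbol for each replicate and a black bar at the group mean. For MCM7 the shControl libraries lie at 136, 184 and 473 FPKM and the shTRMT6 libraries between 253 and 296 FPKM, and shControl replicate 3 (blue triangle) is the highest point for every gene.

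MCM7 had the most footprints of the ring's subunits in all 6 libraries. MCM7 (ENSG00000166508) lies on the minus strand of chromosome 7, from 100092728 to 100101940, where positions here and for the other members are those of GENCODE 29 on GRCh38. It had 136, 184 and 473 FPKM in shControl and 253, 296 and 270 FPKM in shTRMT6. The knockdown libraries lay above shControl replicates 1 and 2 and below replicate 3, so the groups overlapped. The log2 fold change was 0.26 (95% interval -0.63 to 1.15, limma adjusted p = 0.636).

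MCM3, MCM4 and MCM5 had the same arrangement of libraries. MCM3 (ENSG00000112118, minus strand of chromosome 6 from 52264009 to 52284881) had 44.9, 72.5 and 156 FPKM in shControl and 95.7, 79.8 and 116 FPKM in shTRMT6. MCM4 (ENSG00000104738, plus strand of chromosome 8) had 33.7, 43.9 and 176 FPKM in shControl and 64.8, 62.3 and 83.9 FPKM in shTRMT6. MCM5 (ENSG00000100297, plus strand of chromosome 22 from 35400063 to 35425430) had 11.6, 14.6 and 50.1 FPKM in shControl and 22.7, 27.2 and 24.1 FPKM in shTRMT6. For these 4 subunits, MCM7 included, every knockdown library thus lay between the 2 lower control libraries and the highest one. Their log2 fold changes were 0.26 for MCM3, 0.12 for MCM4 and 0.25 for MCM5, with 95% intervals of -0.63 to 1.16, -1.04 to 1.28 and -0.81 to 1.30 (limma adjusted p = 0.634, 0.873 and 0.706).

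MCM6 was the one member whose groups did not overlap, lower in shTRMT6, an arrangement found in 14.3% of tested genes. 0 members lay wholly higher, against 37.0% of tested genes. MCM6 (ENSG00000076003, minus strand of chromosome 2 from 135839626 to 135876426) had 21.2, 20.4 and 77.7 FPKM in shControl and 17.1, 14.5 and 19.1 FPKM in shTRMT6. The gap between the lowest control and the highest knockdown library was small beside the distance of shControl replicate 3 from the other controls. The log2 fold change was -0.91 (95% interval -1.96 to 0.14), which did not pass (limma adjusted p = 0.155).

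MCM2 (ENSG00000073111, plus strand of chromosome 3 from 127598223 to 127622436) had 18.2, 18.8 and 66.6 FPKM in shControl and 24.8, 16.8 and 23.2 FPKM in shTRMT6. The knockdown libraries fell on both sides of shControl replicates 1 and 2, with a log2 fold change of -0.40 (95% interval -1.44 to 0.63, limma adjusted p = 0.521). Summed over MCM2-7, the level was 265, 354 and 999 FPKM in shControl and 478, 497 and 537 FPKM in shTRMT6. Group means of this sum were 539 ± 401 and 504 ± 29.9 FPKM (n = 3 each, SD), lower in shTRMT6, while the mean of the log2 sums was higher there by 0.15. A two-sided exact permutation test of the log2 sums gave p = 0.9, where 3 against 3 gives no p under 0.1. Between shControl replicates 1 and 2, 0 of the 10 members differed at least 2-fold, while 8 did between replicate 3 and each of the others. Among the knockdown libraries 2 members differed that much between replicates 2 and 3 and 0 between the other pairs.

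Among the loading factors, CDC6, the ATPase that joins the origin recognition complex, was arranged like MCM2. Its knockdown libraries fell on both sides of shControl replicates 1 and 2. CDC6 (ENSG00000094804, plus strand of chromosome 17 from 40287633 to 40304657) had 13.8, 15.4 and 65.7 FPKM in shControl and 19.2, 13.6 and 28.5 FPKM in shTRMT6. Its log2 fold change was -0.30 (95% interval -1.51 to 0.92, limma adjusted p = 0.694). CDT1, which brings the ring to the origin (ENSG00000167513, plus strand of chromosome 16 from 88803213 to 88809258), had 17.9, 17.9 and 33.9 FPKM in shControl and 24.1, 22.4 and 13.7 FPKM in shTRMT6. The lowest and the second highest values were both in knockdown libraries (log2 fold change -0.18, 95% interval -0.95 to 0.59, limma adjusted p = 0.711).

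GMNN (ENSG00000112312, plus strand of chromosome 6 from 24774931 to 24786099) had 81.1, 85.5 and 197 FPKM in shControl and 79.8, 49.3 and 117 FPKM in shTRMT6. The groups overlapped, with a log2 fold change of -0.52 (95% interval -1.42 to 0.39, limma adjusted p = 0.340). The log2 ratio of CDT1 to its inhibitor, in which the scale of a library cancels, was -2.12, -2.19 and -2.50 in shControl and -1.69, -1.10 and -3.02 in shTRMT6. The control libraries lay close together and the knockdown libraries on both sides of them (-2.27 ± 0.20 and -1.94 ± 0.98, mean ± SD, n = 3 in each group, with a two-sided exact permutation p of 0.7). Without shTRMT6 replicate 3 the difference of 0.34 became 0.88, and without shTRMT6 replicate 2 it became -0.079.

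CDC45 was the member that varied least among control libraries. CDC45 (ENSG00000093009, plus strand of chromosome 22 from 19479459 to 19520612) had 32.7, 39.3 and 46.8 FPKM in shControl and 24.6, 32.8 and 34.0 FPKM in shTRMT6. The groups overlapped by 2 knockdown libraries just above the lowest control, with a log2 fold change of -0.37 (95% interval -0.95 to 0.21, limma adjusted p = 0.290). In order of control mean the members ran from MCM7 (264 FPKM) and GMNN (121 FPKM) through MCM3, MCM4, MCM6, CDC45, MCM2, CDC6 and MCM5 to CDT1 (23.2 FPKM). No neighbours in this order differed by more than the larger of their SDs. Estimated reads behind a single value ran from 58 for CDT1 to 3974 for MCM7. An antisense gene, AC023593.1, overlaps coding exons of MCM2, and its reads cannot be told apart from those of MCM2 if strand was not used.

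In shControl replicate 3, MCM4 was 4.54-fold and CDC6 4.50-fold above the mean of replicates 1 and 2. MCM5 was 3.83-fold, MCM6 3.74-fold, MCM2 3.60-fold, MCM7 2.96-fold, MCM3 2.66-fold and GMNN 2.37-fold above it. CDT1 (0.89 on the log2 scale) and CDC45 (0.37) stood out less. On the log2 scale, 8 of the 10 members were at least 2-fold higher in that library, against 8.48% of tested genes, and the 6 ring subunits lay at the 96.8 to 99.7 percentile of all tested genes. Shared excess was thus strongest for the helicase ring and CDC6.

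**Figure D2:**
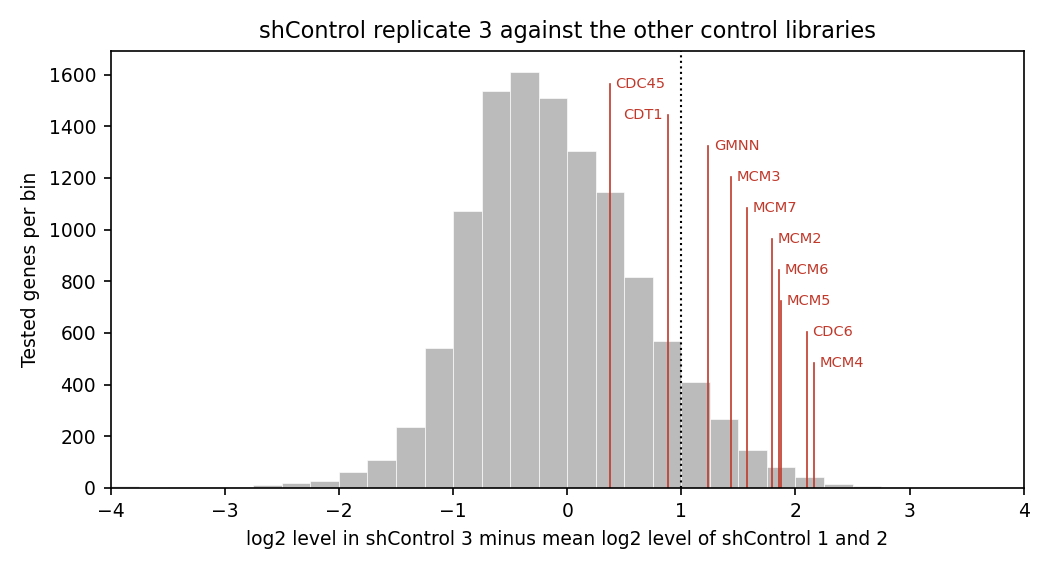
Distribution over 11566 tested genes of the log2 level in shControl replicate 3 minus the mean log2 level of shControl replicates 1 and 2 (bars of 0.25 log2 units), with the 10 members as red lines and a dotted line at 2-fold. CDC45 and CDT1 lie left of the dotted line and the other 8 members right of it.

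Other replication genes were not uniformly high in that library. Over the whole pathway list described below, 11 of 60 tested genes were at least 2-fold higher there, against 8.48% of all tested genes. GINS genes, whose products bind beside CDC45, had a median of 0.80-fold with 0 of 4 at 2-fold. The ORC genes, for the origin recognition complex, had a median of 1.72-fold with 2 of 6. These folds were taken on log2(FPKM + 1), against the mean of replicates 1 and 2. The excess was more frequent in longer genes: 268 of 1921 tested genes with a coding length of 1854 to 2718 nt were at least 2-fold higher there, against 27 of 1923 genes up to 672 nt. The MCM2-7 genes have coding lengths of 2157 to 2712 nt, CDC6 1680 nt, CDT1 1638 nt, CDC45 1794 nt and GMNN 627 nt. The part of coding length in the excess was not tested.

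The 5 genes whose library profile was nearest to the mean profile of MCM2-7, of 5778 candidates of at least median level, were XRCC6, CPNE3, FUBP1, HK1 and NAA15. Likeness was the root mean square difference of centred log2(FPKM + 1) over the 6 libraries, and it was 0.07 for XRCC6 and 0.12 for NAA15. XRCC6, which encodes the Ku70 subunit that binds DNA ends, had 165, 186 and 566 FPKM in shControl and 253, 230 and 250 FPKM in shTRMT6. HK1, a hexokinase, had 18.0, 22.3 and 82.0 FPKM in shControl and 30.4, 24.1 and 30.3 FPKM in shTRMT6. Both were picked for this likeness, so a highest value in shControl replicate 3 and similar knockdown libraries follow from the choice. Nearest to CDC45 were NUP54, MTG2 and RIPOR1.

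The sequence around the members' transcription starts is also shown, and its part in the footprint levels was not tested. Of the 10 members 8 were searched, in windows of 250 bases before to 50 bases after a start from RefSeq (GRCh38.p14), and MCM4 and MCM5 were not used here. Both strands were read for the 4 E2F-type octamers TTTGGCGC, TTTCGCGC, TTTCCCGC and TTTGGCGG, which were chosen with these windows in view. All 8 had at least 1 octamer in a window, in 8 of 13 windows. Over all genes, 3.35% of 35116 windows had one. Because the octamers were chosen on the members' own windows, these shares cannot be compared as an enrichment. Overlapping matches on the 2 strands were counted separately. Each line gives the 30 bases around the match nearest to the start, 5′ to 3′ on the gene's strand, with matched octamers in capitals. The first matched base nearest to a start ran from -86 for MCM6 to 8 for CDC6.
MCM2, chr3:127598402-127598431, plus strand: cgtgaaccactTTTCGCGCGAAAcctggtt
MCM3, chr6:52284728-52284757, minus strand: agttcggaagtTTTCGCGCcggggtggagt
MCM6, chr2:135876511-135876540, minus strand: ggtcaggTTTGGCGCGAAAtctccagctcc
MCM7, chr7:100101388-100101417, minus strand: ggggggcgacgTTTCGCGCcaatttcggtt
CDC6, chr17:40287875-40287904, plus strand: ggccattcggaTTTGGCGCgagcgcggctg
CDT1, chr16:88803751-88803780, plus strand: cccGCGGGAAATTTGGCGGgaaccgcgccc
GMNN, chr6:24775322-24775351, plus strand: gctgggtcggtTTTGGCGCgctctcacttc
CDC45, chr22:19479884-19479913, plus strand: aggagccgtgaTTTGGCGGgagtcttgacc
In MCM2 and MCM6 a pair of octamers on opposite strands overlap, and in CDT1 a pair stand directly beside each other. A match describes these letters and does not show that a factor binds there.

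Without shControl replicate 3, 3 members were higher and 0 lower in shTRMT6, where 28.3% of tested genes were higher and 12.3% lower. MCM7 had a log2 fold change of 0.78 (limma adjusted p = 0.0119), MCM4 0.84 (limma adjusted p = 0.0200) and MCM5 0.87 (limma adjusted p = 0.0250). MCM3 had 0.74 and did not pass (limma adjusted p = 0.0527). MCM2 (0.19), CDC6 (0.40), CDT1 (0.12), MCM6 (-0.29), CDC45 (-0.24) and GMNN (-0.10) did not pass either. The summed MCM2-7 level was then higher by 0.72 on the log2 scale. The share of 3 in 10 members higher is close to that of all tested genes. Because shControl replicate 3 was the highest control for all 10 members, leaving it out had to raise every member's fold change. The direction of these shifts was thus set by the choice of library. The p-values of this fit do not allow for that choice and are not separate evidence of higher levels.

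Scaling of the libraries moved the members the other way. With each library scaled to its median, the median over all tested genes went from 0.39 to -0.07 on the log2 scale, and that of the members from -0.24 to -0.71. All 10 members then had a negative log2 fold change, and 2 were lower, where 19.7% of tested genes were lower and 13.1% higher. These were MCM6 (-1.38, limma adjusted p = 0.0492) and CDC45 (-0.85, limma adjusted p = 0.0315), and 2 in 10 is close to the share of all tested genes. The same 2 were the only members past the threshold with quantile normalization, where 14.7% of tested genes were lower and 13.9% higher, and with trends by level and coding length removed, where 13.6% were lower and 13.5% higher. With the replicate number as a block 0 members passed, where 27.2% of tested genes were higher and 9.21% lower. MCM6 had a log2 fold change below 0 in all 13 alternative fits, between -0.29 and -1.60. The same held for CDC45, between -0.23 and -0.96, and for GMNN, between -0.10 and -1.01. These fits reuse the same libraries and are not repeated evidence.

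**Figure D3:**
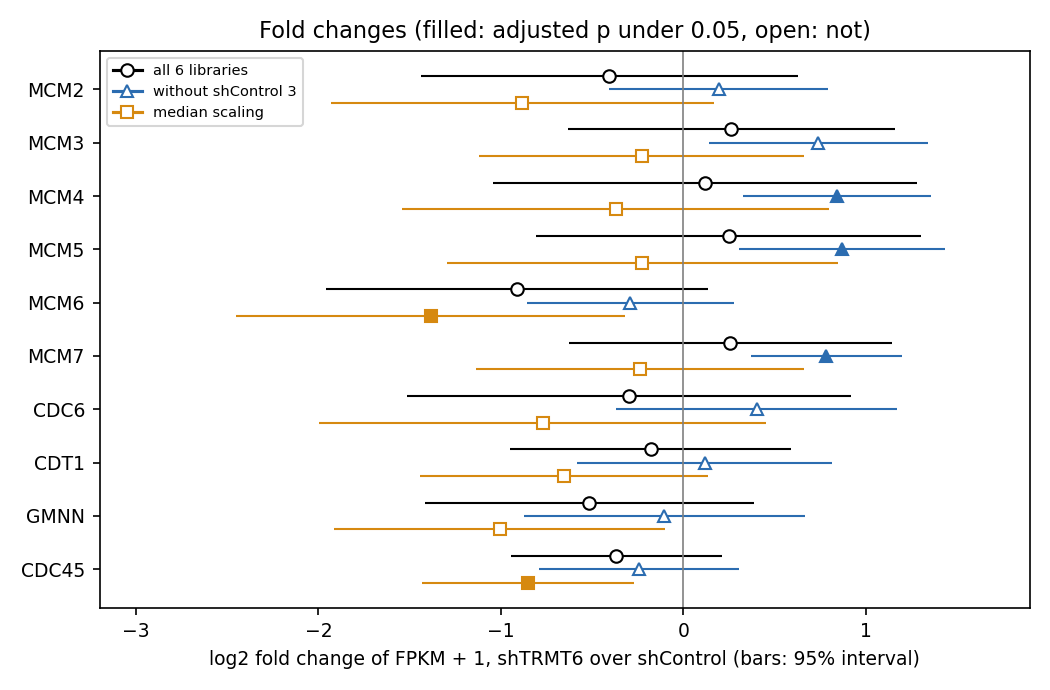
log2 fold change of FPKM + 1 in shTRMT6 over shControl for the 10 members with 95% intervals from limma, for all 6 libraries (black), without shControl replicate 3 (blue) and with each library scaled to its median (orange), filled where the adjusted p is under 0.05. No black point is filled, MCM4, MCM5 and MCM7 are filled in blue to the right of 0, and MCM6 and CDC45 in orange to the left.

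A ratio of subunits within a library does not change with the scale of that library, apart from the pseudocount, so the balance within the ring was compared as well. MCM5 was the lowest subunit in 3 of 3 control libraries, and MCM6 in 3 of 3 knockdown libraries. The log2 level of MCM6 relative to the mean of the other 5 subunits was -0.66, -1.08 and -0.78 in shControl and -1.80, -1.95 and -1.80 in shTRMT6. These groups did not overlap, and shControl replicate 3 lay between the other control libraries on this measure. The difference was -1.01 (-0.84 ± 0.22 against -1.85 ± 0.09, mean ± SD of 3 libraries), with a two-sided exact permutation p of 0.1, the smallest that 3 against 3 allows, and 0.2 adjusted over the 6 subunits. Without shControl replicate 3 the difference was -0.98. MCM6 was chosen for this account after its values were seen.

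MCM5 and MCM7 had higher values relative to the mean of the other 5 in shTRMT6, a mean that holds MCM6 and MCM2. MCM7 lay at 2.49, 2.66 and 2.32 above that mean in shControl and at 2.78, 3.17 and 2.71 in shTRMT6, again with no overlap. MCM5 lay at -1.64, -1.63 and -1.53 in shControl and at -1.33, -0.91 and -1.41 in shTRMT6. Their differences of 0.39 and 0.38 had a two-sided exact permutation p of 0.1 each, or 0.2 adjusted over the 6 subunits. For MCM2 (-0.40), MCM3 (0.40) and MCM4 (0.23) the groups overlapped on this measure. Groups did not overlap for 3 of the 6 subunits, against 27.1% of the other tested genes set against the MCM2-7 mean. These shares are not like for like and cannot be read as an excess. All 6 subunits were high in shControl replicate 3, which largely cancels among them but enters the ratios of most other genes. The 6 measures share their subunits, so a lower MCM6 by itself raises the other 5, and the 3 are not separate events.

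**Figure D4:**
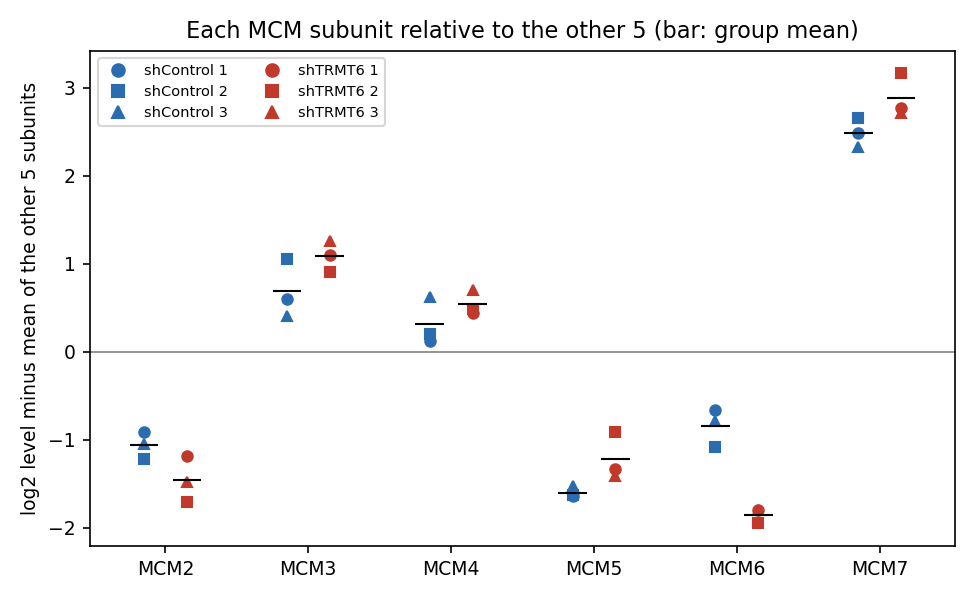
log2(FPKM + 1) of each MCM2-7 subunit minus the mean of the other 5 in the same library, with shControl in blue, shTRMT6 in red, a symbol for each replicate and a black bar at the group mean. MCM6 lies between -1.08 and -0.66 in shControl and between -1.95 and -1.80 in shTRMT6, and shControl replicate 3 does not stand apart for it.

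Of the 15 pairs of subunits, 8 had log2 ratios whose groups did not overlap, or 53.3%, against 46.4% of all pairs of tested genes, so the count itself is near the background. The distribution over the pairs was uneven. All 5 pairs with MCM6 were among the 8, with differences from 0.51 to 1.17 in size, and so were 4 of the 5 pairs with MCM2, which was lower against MCM3 (-0.67), MCM5 (-0.65) and MCM7 (-0.66) and higher against MCM6 (0.51). Of the 8 pairs that set MCM2 or MCM6 against another of the 4 remaining subunits, 7 did not overlap. These pairs share MCM2 or MCM6 and are not separate observations. The gap for MCM2 to MCM3 was narrow, with -1.89 in shControl replicate 2 and -1.91 in shTRMT6 replicate 1. All 6 pairs among MCM3, MCM4, MCM5 and MCM7 overlapped, and their ratios differed by at most 0.14 between the groups. This split of the subunits was chosen after the values were seen. The MCM6 to MCM7 ratio went from -2.78 ± 0.29 to -3.94 ± 0.28 and the MCM5 to MCM7 ratio from -3.41 ± 0.18 to -3.42 ± 0.02 (log2, mean ± SD of 3 libraries). Their two-sided exact permutation p-values were 0.1 and 1.0, or 0.188 and 1.0 adjusted over 15 pairs. The SD of log2 level over the 6 subunits in a library was 1.21, 1.37 and 1.18 in shControl and 1.47, 1.61 and 1.53 in shTRMT6 (two-sided exact permutation p = 0.1). The most and the least covered subunits were 11.7-fold, 12.6-fold and 9.43-fold apart in shControl and 14.8-fold, 20.4-fold and 14.2-fold apart in shTRMT6.

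The other genes of the pathway, 61 in 8 lists of which 60 were tested, moved in both directions, 9 higher and 8 lower, where 26.5% of all tested genes were higher and 9.04% lower. Scaled to library medians, 4 were higher and 16 lower (13.1% and 19.7% of all tested genes). Without shControl replicate 3, 17 were higher and 10 lower (28.3% and 12.3% of all tested genes). The median log2 fold change was 0.15, below the 0.39 of all tested genes. In the origin recognition complex 1 of 6 genes was higher, ORC2 (0.81), which passed with none of the 3 other scalings, and 0 were lower. Of the 4 GINS genes 1 was lower, GINS1, from 139 ± 27.9 to 81.9 ± 18.3 FPKM (mean ± SD of 3 libraries), a log2 fold change of -0.76 (limma adjusted p = 0.0416). Both calls held without shControl replicate 3 and ended without any other single library (limma adjusted p up to 0.140 for ORC2 and 0.149 for GINS1). The ORC2 call also ended with the replicate block (limma adjusted p = 0.0579), and that of GINS1 with trends removed (0.0609). Of the 4 GINS genes, 3 were lower with median scaling, 2 without shControl replicate 3 and 0 with trends removed. Of all tested genes, 19.7%, 12.3% and 13.6% were lower in these fits.

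Of 7 kinase and cyclin genes that drive origin firing, 2 were lower and 0 higher, where 9.04% of all tested genes were lower and 26.5% higher. With median scaling 4 were lower, where 19.7% of all tested genes were lower. Without shControl replicate 3, 1 was higher, where 28.3% of all tested genes were higher. It was CCNE2, which encodes a cyclin E (1.11, limma adjusted p = 0.00273, named after its values were seen). That library was the highest control for CCNE2, so leaving it out had to raise the fold change. CDK2, the S phase kinase, went from 365 ± 72.0 to 206 ± 27.7 FPKM (log2 fold change -0.81), and CCNA2, which encodes its partner cyclin A, from 52.5 ± 10.8 to 27.5 ± 6.54 FPKM (-0.92). Both calls ended without shControl replicate 1 or shTRMT6 replicate 2, that of CDK2 also without shTRMT6 replicate 3 and that of CCNA2 without shTRMT6 replicate 1 (limma adjusted p = 0.0706 for CDK2 and 0.0883 for CCNA2 in these last fits). The CDK2 call also ended with quantile normalization (limma adjusted p = 0.0612) and with trends removed (0.0545). Among 10 firing and fork factors TICRR, which acts in CDC45 loading, was higher (1.19) but not with median scaling (adjusted p = 0.0995), quantile normalization (0.43, adjusted p = 0.323) or trends removed (0.089, adjusted p = 0.847), and TIPIN, of the fork protection complex, was lower (-1.05). Of the other MCM proteins, MCMBP, which binds MCM subunits, was lower (-0.84). MCM9, a helicase outside the licensing ring, was higher (1.07) at 5.70 ± 0.76 against 2.21 ± 0.64 FPKM, but not with median scaling (adjusted p = 0.143), quantile normalization (0.30, adjusted p = 0.535) or trends removed (0.077, adjusted p = 0.874). MCMDC2 was listed at 0 in all 6 libraries, and MCM8 did not pass. The calls for TICRR and MCMBP ended without shControl replicate 1 or any 1 of the shTRMT6 libraries (limma adjusted p up to 0.0913 and 0.0793). That for MCM9 held without shControl replicate 3 and ended without any other single library (limma adjusted p up to 0.112) and with the replicate block (0.0559). TIPIN stayed past the threshold in all 6 fits that left out a library.

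In the list for turnover of licensing factors 2 of 11 genes were lower and 0 higher, against 9.04% and 26.5% of all tested genes. They encode SKP1 (-1.09) and SKP2 (-0.71), parts of a ubiquitin ligase that acts on CDT1. The SKP2 call held without shControl replicate 3, ended without any other single library (limma adjusted p up to 0.174) and ended with the replicate block (0.0653). DTL, the CDT1-binding subunit of another ligase, had 10.0, 10.5 and 28.0 FPKM in shControl and 26.2, 19.6 and 28.6 FPKM in shTRMT6. It did not pass with all libraries (log2 fold change 0.72, limma adjusted p = 0.178) and passed without shControl replicate 3 (1.18, limma adjusted p = 0.0113). That library was the highest control for DTL, so leaving it out had to raise the fold change. The DTL partner DDB1 was named like DTL after the values were seen. In shControl replicate 3 it was 4.36-fold above the mean log2(FPKM + 1) of the other controls, where MCM4 was 4.48-fold above. The ring subunits were likewise high there. Of 6 replisome removal genes TRAIP (1.42) and UBXN7 (0.83) were higher, UBXN7 with none of the 3 other scalings, and LRR1 (-1.26) was lower. The TRAIP call ended without shTRMT6 replicate 3 (limma adjusted p = 0.0510) with quantile normalization (0.0876) and with trends removed (0.0637), and that of UBXN7 without any single library other than shControl replicate 3 (up to 0.164).

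As deposited, the E2F and RB family had 4 of 13 genes higher and 0 lower, a share of higher genes close to the 26.5% of all tested genes. With median scaling 3 were higher, where 13.1% of all tested genes were, and with trends removed 4, where 13.5% were. E2F1, an activator of replication genes, had 11.7, 19.3 and 11.4 FPKM in shControl and 40.3, 39.1 and 32.1 FPKM in shTRMT6 (log2 fold change 1.37, limma adjusted p = 0.00686). E2F4 went from 96.1 ± 30.7 to 240 ± 11.3 FPKM (1.37) and its dimer partner TFDP1 from 92.4 ± 34.4 to 221 ± 6.45 FPKM (1.32). E2F6 was higher (0.81), but not with median scaling or quantile normalization, nor without any 1 of the shTRMT6 libraries (limma adjusted p up to 0.0714). E2F1, E2F4 and TFDP1 stayed past the threshold in all 6 fits that left out a library and with all 3 other scalings. Unlike the ring subunits, E2F4 and TFDP1 were lowest, not highest, in shControl replicate 3 among the controls, at 60.9 and 60.4 FPKM.

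**Figure D5:**
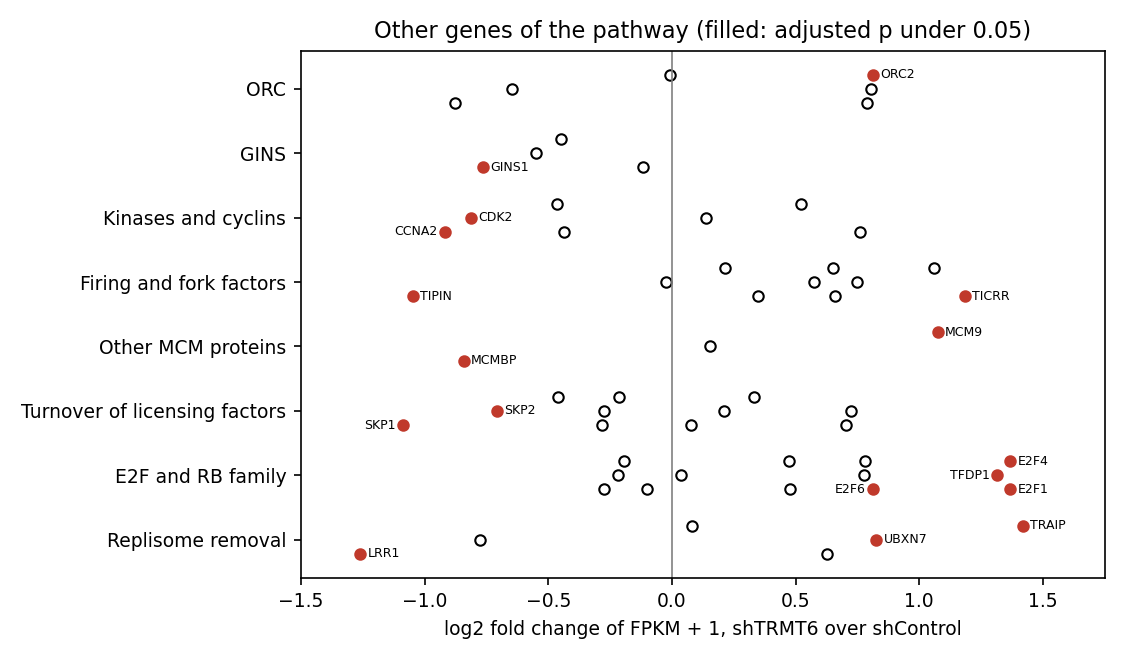
log2 fold change of FPKM + 1 in shTRMT6 over shControl for the 60 tested genes of the 8 pathway lists, a point for each gene, red and named where the limma adjusted p is under 0.05. The E2F and RB family has 4 red points to the right of 0, while the GINS list and the list of kinases and cyclins have red points to the left only.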

How the data were processed

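Ribosome-protected fragments above 17 nt were sequenced from 6 RKO libraries, per the labels' protocols. The authors deposited FPKM per gene, per the file headers. Per the submitters' processing notes, fastp, STAR and RSEM were used, with neither version nor role recorded. For genome build, annotation, strand use and multi-mapped reads the entry is: not given in the sources used here. Table columns named NC and SH were read as shControl and shTRMT6 by name and number, which no label spells out. 0 value columns were left unassigned. Symbols were found for 19705 of 20289 identifiers. Positions and coding lengths came from GENCODE 29. No RNA-seq was used, so mRNA amount and ribosomes per mRNA are not separated.

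Members and lists were chosen with earlier results of these data known. limma 3.58.1 (R 4.3.3) modelled log2(FPKM + 1) by group, with an intensity trend in the prior variance. It took the 11566 genes that reached 1 FPKM in 3 or more libraries, and p-values were adjusted over all of them. Fold changes are on that scale and understate changes of low genes. Named genes were all members, TRMT6, up to 4 called genes of each pathway list with the smallest p, and the 5 and 3 genes of nearest profile. Single values were compared by exact permutation (scipy 1.17.1). The value of 1 read, from genes with 1 coding transcript, put 71.0% to 79.1% of low values within 0.1 of a whole read, so depths are estimates and no count model was fitted. On simulated data of 11566 genes for shTRMT6 with shControl, the fit recovered 12% of 100 genes changed 2-fold and 66% of 100 changed 4-fold. That simulation gave 83 calls, against 3069 genes higher and 1046 lower in the data. With fewer changed genes its adjusted threshold was stricter, so these percentages do not give the power of the fit to the data. Python 3.11.15 and pandas 2.3.3 served for tables. Alternatives were median scaling, quantile normalization, removal of level and length trends, other filters and pseudocount, the replicate block and leaving out each library.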

Additional observations from a re-analysis of the deposited data

How the results depend on the processing

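Scaling changed the sign of 4 members. Genes higher in shTRMT6 numbered 3069 as deposited, 1520 with median scaling, 1602 with quantile normalization and 1547 with level and length trends removed, and genes lower 1046, 2275, 1700 and 1559. With each of these 3 scalings 2 members were lower. Signs changed for MCM3 (-0.23 with median scaling, -0.22 with trends removed), MCM4 (-0.37, -0.17 with quantile normalization, -0.45 with trends removed), MCM5 (-0.23, -0.30, -0.41 likewise), MCM7 (-0.24 with median scaling) and the difference of the log2 MCM2-7 sums (-0.35 with median scaling, 0.15 as deposited). With quantile normalization the CDT1 to GMNN difference was -0.024, the spread among subunits differed by 0.55 in place of 0.28, and MCM6 against its partners by -1.26. The cause was not tested.

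Leaving out 1 library at a time gave 1828 to 3270 genes higher and 587 to 1428 lower, with 0 to 3 members higher. Fold changes (log2) ranged from -0.71 to 0.19 for MCM2, -0.15 to 0.74 for MCM3, -0.33 to 0.84 for MCM4, -0.14 to 0.87 for MCM5, -0.11 to 0.78 for MCM7, -0.69 to 0.40 for CDC6 and -0.33 to 0.12 for CDT1. The MCM2-7 sum ranged from -0.24 to 0.72, the CDT1 to GMNN difference from -0.079 to 0.88 and the spread from 0.25 to 0.34. For the 7 members the highest value came without shControl replicate 3. Over the 28 genes made up of the members, TRMT6 and the called pathway genes, with 363 alternatives, 264 kept call and direction, 71 lost the call, 9 gained it and 19 changed sign. The genes of nearest profile were not recomputed under alternatives. The comparison of MCM6 with its partners was added after the data were seen.

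Over all tested genes, same-numbered libraries deviated together with r of 0.01, 0.01 and 0.10, so the numbers were not taken as pairs. With the replicate block 3146 genes were higher and 1065 lower, and 0 members passed. Of the members, 1 (MCM6) had an unadjusted limma p under 0.05 there (0.0319, adjusted 0.0756). The block lowered the standard error of each member except CDT1 and CDC45, for example from 0.54 to 0.36 for CDC6. With 3 libraries a group, changes of 2-fold were mostly missed on simulated data, where far fewer genes passed than in the real fit. The share missed in the data is not known from this.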
